A study of Mus musculus with 14 samples.

Results

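The 10 kallikrein-related peptidase genes Klk5 to Klk14 were examined in bulk RNA-seq of the mouse esophagus. They were taken by gene symbol from the deposited count files, where they are 10 of 55291 symbols. The libraries came from wild type C57BL/6 mice of 2 age groups, aged (at least 18 months) and young (at most 4 months). Epithelium peeled from the muscle layers was sequenced from 9 mice, 5 aged (O1, O2, O3, OF5 and OM8) and 4 young (Y1, Y3, YF5 and YM4). Stroma was sequenced from 5 of the same mice, 3 aged (O1, O2 and O3) and 2 young (Y1 and Y3). No transgene or treatment was named for any group.

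Kallikrein-related peptidases are secreted serine proteases that squamous keratinocytes release as inactive proenzymes. In skin, they activate one another in a cascade and cut the corneodesmosome proteins that hold surface cells together, which lets these cells be shed. The inhibitor LEKTI, encoded by Spink5, holds the cascade in check, and its loss in humans causes Netherton syndrome. The genes lie side by side in 1 cluster. In the GENCODE annotation of build GRCm38 the 10 members occupied chromosome 7 from 43690418 (the start of Klk14) to 43851181 (the end of Klk5), all on the plus strand, with Klk13, Klk12, Klk11, Klk10, Klk9, Klk8, Klk7 and Klk6 between them in that order.

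The members share a catalytic serine, and the codon 6 codons before it encodes the residue at the base of the substrate pocket, which in this enzyme family sets whether trypsin-like or chymotrypsin-like sites are cut. The coding stretch that holds both is shown for all 10 members so that their pocket codons can be compared. Capitals mark the pocket codon, then the serine codon. Sequences are from GENCODE transcripts, 27 bases each, 5′ to 3′.
Klk5: GACtcctgccagggtgatTCCggaggt
Klk6: GATtcctgtcagggtgatTCTggaggt
Klk7: AACacgtgcaatggtgacTCAgggggg
Klk8: GACacgtgccagggtgacTCAggaggc
Klk9: GGCtcttgccagggtgacTCTggggga
Klk10: GACtcttgccagagtgacTCCggtggc
Klk11: GACtcctgtcagggtgacTCTggaggc
Klk12: GATgcctgtcagggtgacTCTggaggc
Klk13: GACtcctgtgagggtgatTCTgggggc
Klk14: GACtcctgtcagggtgatTCTggggga

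The pocket codon was GAC or GAT in 8 members, AAC in Klk7 and GGC in Klk9. The other stretches differed from that of Klk10 at 5 to 9 of the 27 bases. Over whole transcripts, the longest run that any 2 members shared exactly was 31 bases (Klk11 and Klk12), and the median over the 45 pairs was 14 bases. Identity over the whole length of the transcripts was not computed.

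Total counts were 16477424 to 21867101 in the 5 epithelial libraries of mice that also gave stroma, 8217516 to 9399448 in the 4 libraries of mice that gave epithelium alone (codes with F or M), and 13257833 to 15644580 in the 5 stromal libraries. The 4 libraries stood apart. The ribosomal RNA gene CT010467.1 took 63.9% to 73.9% of their counts, against 10.4% to 23.3% in the other 5 epithelial libraries and 1.47% to 1.88% in stroma, and protein-coding genes held 1042394 to 1433857 counts. Levels are given as normalized counts, which are counts per 1000000 after TMM scaling of library size, and 3 counts (the upper limit that a count of 0 allows, for counting error only) came to 0.707 to 1.25 normalized counts in these 4 libraries, 0.0872 to 0.124 in the other 5 and 0.115 to 0.175 in stroma. The labels of the layers were checked on marker genes. All 5 basal and all 6 differentiated keratinocyte markers were higher in epithelium, and all 5 skeletal muscle markers were higher in stroma (edgeR, adjusted p under 0.05). Summed skeletal muscle markers ranged from 8.27 to 669.6 normalized counts in epithelium and from 12998 to 19396 in stroma. Fibroblast markers overlapped between the layers, at 229.1 to 520.8 in epithelium and 360.2 to 860.1 in stroma, and 3 of the 5 were called higher in stroma. So were 2 of 4 smooth muscle, 3 of 3 tested leukocyte, 3 of 4 Schwann cell or neuron and 2 of 2 tested salivary gland markers, and no marker of these lists was higher in epithelium. The background was high here too, as 5059 of all 16791 genes tested were called higher in stroma. In bulk tissue, fewer cells of a type and less RNA per cell cannot be told apart.

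The first comparison asked where in the esophageal wall the family was expressed. Of the 10 members, 9 were higher in epithelium than in stroma, by 15.2-fold (Klk5) to 534.2-fold (Klk14), and only Klk6 did not pass the test. The background was high: 26.1% of the 16791 genes tested were called higher in epithelium. The members' median log2 fold change was 7.12, against -0.05 over all genes tested. For the same 9 members every epithelial library lay above every stromal library, as it did for 14.4% of genes tested. In the 10 libraries of the 5 mice with both layers, the same 9 members were called, with log2 fold changes of 3.83 to 9.09.

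Klk5 is the protease that can activate itself and then the proenzymes of other members. Its level in epithelium was 6.83 at the lowest, 9.001 at the median and 11.3 at the highest. In stroma it was 1.40 in O1, 0.863 in O2, 0 in O3, 0.464 in Y1 and 0.236 in Y3. The groups did not overlap, but Klk5 kept more stromal signal than most members. Its log2 fold change was 3.93 (SE 0.52, edgeR, adjusted p = 2.01e-06).

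Klk14, a trypsin-like enzyme that also cuts protease-activated receptor 2, ran from 97.1 through a median of 143.6 to 225.0 in epithelium. The stromal libraries held 0 in O1, 0.205 in O2, 0.765 in O3, 0.206 in Y1 and 0.118 in Y3. Over the 14 libraries it had the largest log2 fold change of the members, at 9.06 (SE 0.51, edgeR, adjusted p = 2.07e-11), and without the stroma of O3 it was at 10.02. Without the stroma of O2, Klk7 was ahead at 10.35 against 8.96 for Klk14.

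Klk7, the chymotrypsin-like enzyme that digests corneodesmosin, ran from 35.1 through 53.0 to 77.5 in epithelium. In stroma it was 0 in O1, 1.60 in O2, 0.0383 in O3, 0.0516 in Y1 and 0.0394 in Y3. A single stromal library therefore held nearly all of its stromal counts, 39 of 42. The log2 fold change was 7.17 (SE 0.76, edgeR, adjusted p = 1.34e-06), and without the stroma of O2 it was 10.4 (edgeR, adjusted p = 2.08e-12). In that library the summed differentiated keratinocyte markers were also the highest in stroma, at 434.7 against 35.3 in the lowest, and their part in the Klk7 value was not tested.

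Klk8, also called neuropsin, is a trypsin-like enzyme of both skin and brain. It ran from 28.3 through 44.9 to 52.5 in epithelium, and in stroma from 0 in O1 to 1.23 in O2. Its log2 fold change was 6.01 (SE 0.41, edgeR, adjusted p = 4.41e-10). Klk10, known in humans as normal epithelial cell-specific 1, was the member with the most counts in both layers. It ran from 183.8 through 258.4 to 385.0 in epithelium, and in stroma it was 0.175 in O1, 3.04 in O2, 2.64 in O3, 2.48 in Y1 and 1.06 in Y3. The stroma of O1, with 3 counts, stood lowest. The log2 fold change was 7.07 (SE 0.50, edgeR, adjusted p = 4.91e-10).

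Klk9, Klk11, Klk12 and Klk13 followed the same direction. Klk13 rose by 7.83 on the log2 scale (SE 0.46), with 66.8 to 117.9 normalized counts in epithelium and 0 to 0.980 in stroma. Klk12 rose by 4.05 (SE 0.50), with 7.62 to 16.2 in epithelium and 0 to 1.64 in stroma. Klk9 rose by 8.36 (SE 0.49), with 27.1 to 47.7 in epithelium. Its stromal counts were 0 in O1, O2 and O3, 7 in Y1 and 6 in Y3. Klk11 rose by 7.45 (SE 0.66), with 44.9 to 83.4 in epithelium, and its stromal counts were likewise at most 1 in the 3 aged mice, against 22 in Y1 and 13 in Y3. This split by age in stroma rests on 3 aged and 2 young libraries and was not tested. Without the stroma of Y1 the log2 fold changes were 9.17 for Klk9 and 8.57 for Klk11. The 4 adjusted p-values (edgeR) ran from 3.47e-11 for Klk9 to 1.32e-06 for Klk12.

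Klk6, or neurosin, is best known from the central nervous system. It ran from 0.360 through 0.744 to 2.11 normalized counts in epithelium, where 1 library (YF5) had fewer than 3 counts. In stroma it was 0.700 in O1, 0 in O2 and O3, 0.516 in Y1 and 0.473 in Y3, so the groups overlapped. The log2 fold change was 1.64 (SE 0.85, edgeR, adjusted p = 0.110), with an interval of 2 SE from -0.07 to 3.35. In 3 of the 5 mice with both layers the stromal level was 69.4% to 131.4% of the epithelial level of the same mouse, whereas in O2 and O3 the stroma held 0 counts.

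**Figure D1:**
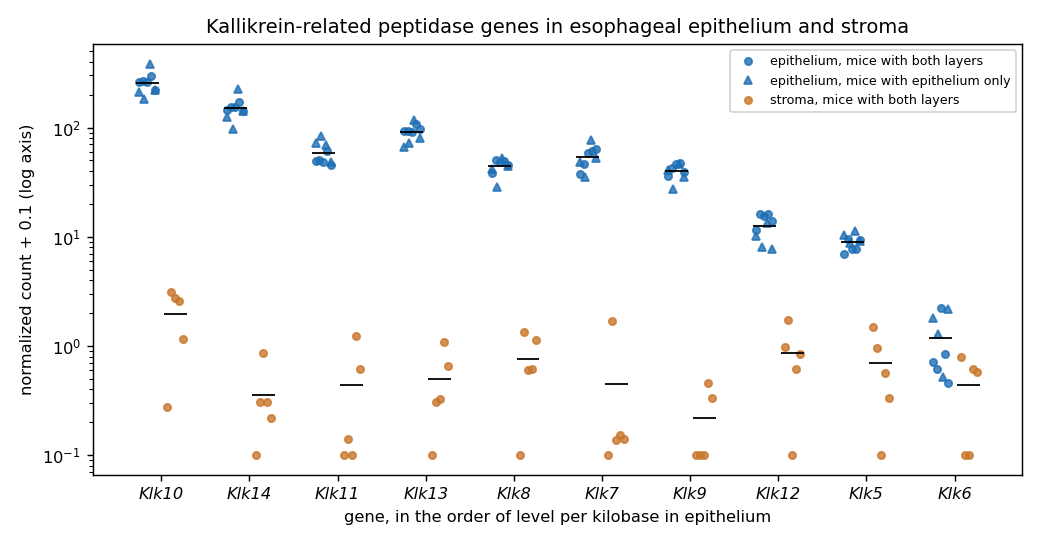
Normalized count plus 0.1 (log axis) of each gene in 9 epithelial (blue) and 5 stromal (orange) libraries, with circles for mice with both layers, triangles for mice with epithelium only, and a line at each mean. The layers are apart for 9 genes and overlap for Klk6, and the single high stromal point of Klk7 is O2 at 1.60.

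The stromal signal of each member was set beside that of keratinocyte markers in the 5 mice with both layers. The stromal mean was 0.170% of the epithelial mean for Klk14, 0.282% for Klk9, 0.409% for Klk13, 0.650% for Klk7, 0.662% for Klk11, 0.722% for Klk10 and 1.42% for Klk8. Differentiated keratinocyte markers ranged from 0.310% (Krt4) to 4.72% (Ivl), with a median of 0.606%. Basal markers ranged from 0.819% (Krt5) to 7.17% (Trp63), with a median of 1.22%. These 7 members thus lay within or below the range of the markers. Klk12 was at 5.19%, above every differentiated marker and below Trp63. Klk5 stood at 7.29%, just above Trp63, and Klk6 at 38.9%, above all 11 markers.

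The share also differed by mouse. The O1 stroma held 24 counts of Klk5 and 15 of Klk12, but 3 of Klk10 and 0 of Klk14, Klk13, Klk11, Klk9, Klk8 and Klk7. In that mouse the stromal level of Klk5 was 20.5% of the epithelial level, and that of Klk10 was 0.0668%. The O3 stroma showed the reverse, with 69 counts of Klk10 and 20 of Klk14 but 0 of Klk5, Klk12 and Klk6. The proportions of the members thus differed between stromal libraries, on counts of at most 74 per gene.

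**Figure D2:**
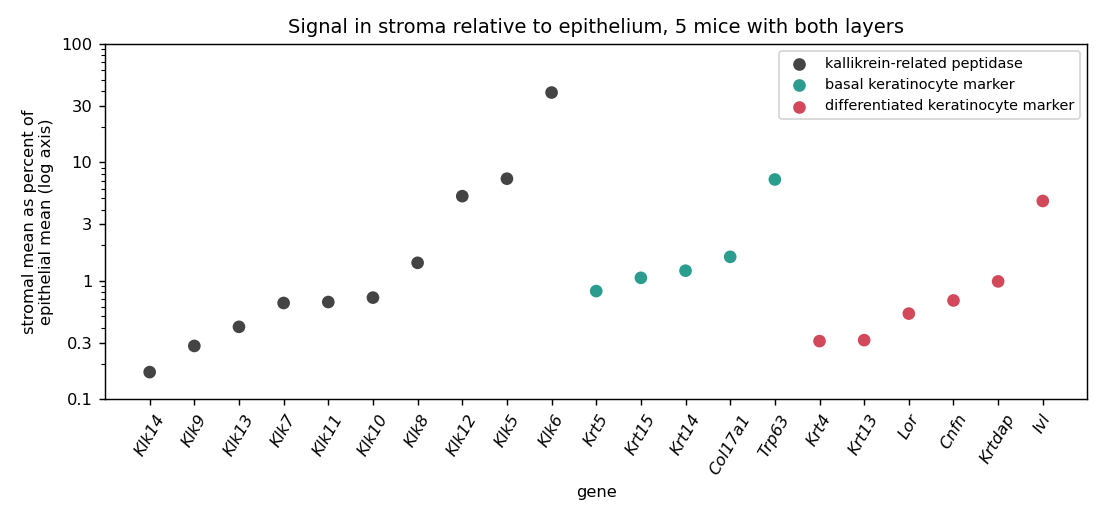
Stromal mean as a percent of the epithelial mean (log axis) in the 5 mice with both layers, for the 10 members (grey), 5 basal markers (green) and 6 differentiated keratinocyte markers (red). Klk5 (7.29%) and Klk6 (38.9%) lie above every marker, and Klk14 (0.170%) and Klk9 (0.282%) lie below every marker.

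Next to Klk5, the cluster went on with genes that were nearly silent in epithelium. Of these, 26 were summed, namely Klk4, Klk15, Klk1 and 23 with symbols of the rodent Klk1b group, pseudogenes among them, which is best known from the salivary gland. The pseudogene Klk2-ps was not counted with them. Together the 26 had 0 to 50 counts in each epithelial library, and no single count was above 8. In stroma their sum was 75 to 200 counts, up to 68 for 1 gene (Klk1b26). Summed salivary gland markers moved the same way, at 0 to 1.05 normalized counts in epithelium and 5.97 to 21.5 in stroma. Most of the stromal sum was Amy1, with a mean of 9.47. The stromal means were 1.90 for Muc19, 0.682 for Bpifa2 and 0.0158 for Smr3a. The part of salivary gland tissue in the Klk1b counts was not tested. Genes of the Klk1b group are near copies of each other, so their single counts are uncertain. None of the 3 genes Klk1, Klk4 and Klk15 passed the filter on low counts.

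Around the cascade, genes that act upstream, inhibit it or serve as its substrates were mostly higher in epithelium as well. Among 6 upstream proteases, 4 were tested. The membrane proteases matriptase (St14, log2 fold change 4.30, SE 0.31), prostasin (Prss8, 5.60, SE 0.43) and Tmprss13 (5.84, SE 0.36) rose. Plasminogen (Plg) fell by 2.37 on the log2 scale (SE 0.92, edgeR, adjusted p = 0.0335), on low counts and with overlap between the layers. Its mean was 0.293 normalized counts in epithelium, where 5 of 9 libraries had fewer than 3 counts, and 1.39 in stroma. O1 went the other way, with 13 counts in epithelium and 0 in stroma. The meprins Mep1a and Mep1b had at most 0.491 normalized counts in any epithelial library and were not tested.

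Of the 7 inhibitors, 5 were tested and 4 rose. Spink5 ran from 496.3 through 822.5 to 1006 normalized counts in epithelium, with a log2 fold change of 6.07 (SE 0.84). The protease inhibitors Spint1 (6.45, SE 0.38), Spint2 (5.08, SE 0.50) and Slpi (6.72, SE 0.32) rose too. Serpinb6a, an intracellular serpin, was the exception and fell by 4.69 (SE 0.27). Per kilobase of exon, the mean level in epithelium was 159.5 ± 33.7 (SD, n = 9) for Spink5 and 186.4 ± 43.2 for Klk10, the highest member.

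All 6 tested genes of the 8 substrates and receptors rose. Corneodesmosin (Cdsn) rose by 6.01 (SE 0.60), desmoglein genes Dsg1a and Dsg1b by 8.52 (SE 0.48) and 7.84 (SE 0.56), desmocollin Dsc1 by 8.13 (SE 0.62) and filaggrin (Flg) by 5.33 (SE 0.78). F2rl1, which encodes protease-activated receptor 2, rose by 1.96 (SE 0.44), the smallest change of the list. Il1b and Camp were too low to be tested. In these 3 lists the genes called had adjusted p of at most 0.0335 (edgeR). The medians of the lists were 4.95, 6.07 and 6.92 on the log2 scale, against -0.05 over all genes tested.

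The second comparison ranked the members within epithelium, per kilobase of exon so that genes of different length could be set side by side. The order was Klk10, Klk14, Klk11, Klk13, Klk8, Klk7, Klk9, Klk12, Klk5 and Klk6. Klk10 was first and Klk14 second in all 9 mice, and Klk6 was last in all 9. The levels per kilobase spanned from 186.4 ± 43.2 (SD, n = 9) for Klk10 to 0.715 ± 0.473 for Klk6.

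Klk14 stood at 118.2 ± 27.4 per kilobase. Klk10 exceeded it 1.58-fold (log2 difference 0.66, SD 0.09, n = 9, exact sign-flip permutation test, two-sided, p = 0.00391, adjusted p = 0.00703 over 9 neighbouring pairs). This p-value is the smallest that 9 mice allow. The difference was 0.52 to 0.81 in every mouse and so varied little.

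Klk11 and Klk13 followed at 40.0 ± 9.22 and 39.6 ± 7.03 per kilobase. They did not differ beyond their spread (log2 difference 0.00, SD 0.47, n = 9, exact sign-flip permutation test, adjusted p = 0.980). Klk11 was above Klk13 in only 2 mice, OF5 and OM8. With coding length in place of exon length Klk13 exceeded Klk11 (log2 difference of Klk11 minus Klk13 -0.64, n = 9, exact sign-flip permutation test, adjusted p = 0.0156), and without division by length it did so too (-0.64, adjusted p = 0.0176). The next 3 genes were Klk8 (28.7 ± 4.83), Klk7 (28.1 ± 7.04) and Klk9 (27.2 ± 4.56). Neither Klk8 and Klk7 (log2 difference 0.05, SD 0.21, n = 9, exact sign-flip permutation test, adjusted p = 0.678) nor Klk7 and Klk9 (0.03, SD 0.25, adjusted p = 0.848) could be told apart per kilobase of exon. With coding length or without division by length both pairs passed the same test, with Klk7 above its neighbours. Klk8 minus Klk7 was -0.31 with coding length (exact sign-flip permutation test, adjusted p = 0.00879) and -0.25 without division by length (adjusted p = 0.0176). Klk7 minus Klk9 was 0.40 with coding length (exact sign-flip permutation test, adjusted p = 0.00502) and 0.39 without division by length (adjusted p = 0.00586).

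Below these came Klk12 (10.4 ± 2.79), Klk5 (6.65 ± 1.05) and Klk6. Klk9 exceeded Klk12 2.66-fold in 9 of 9 mice. Klk12 exceeded Klk5 1.53-fold in 8 of 9 mice (n = 9, exact sign-flip permutation test, adjusted p = 0.0176). The log2 difference was 1.0005 in the 5 mice with both layers and 0.12 in the 4 mice with epithelium only. By ranks within libraries it did not pass (exact sign-flip permutation test, adjusted p = 0.0586). Klk5 exceeded Klk6 10.4-fold in 9 of 9 mice. The neighbours Klk14 and Klk11, Klk13 and Klk8, Klk9 and Klk12, and Klk5 and Klk6 each differed with the same adjusted p as Klk10 and Klk14. In all, 6 of 9 neighbouring pairs passed the test per kilobase of exon.

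**Figure D3:**
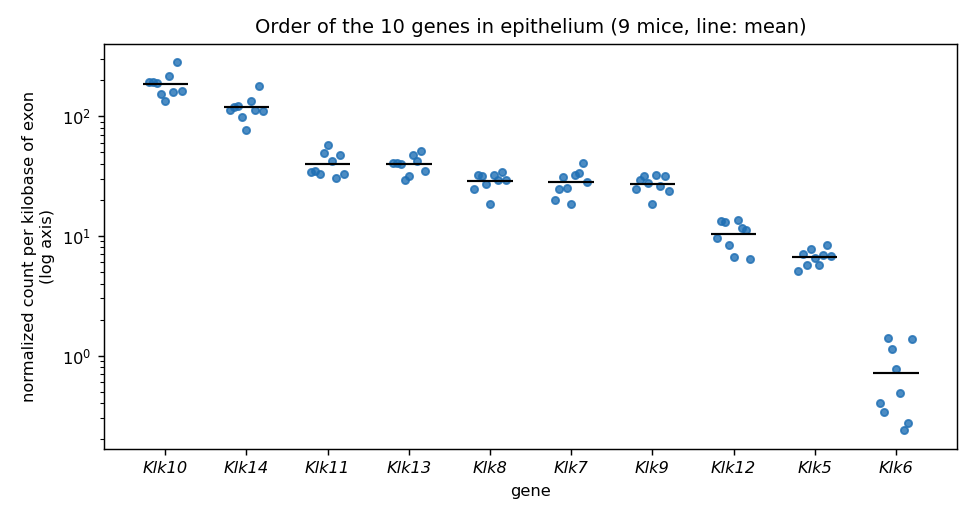
Normalized count per kilobase of exon (log axis) of the 10 genes in the 9 epithelial libraries (points) with the mean (line). Klk10 (186.4) and Klk14 (118.2) lead, 5 genes lie between 27.2 and 40.0, and Klk6 (0.715) is last.

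Klk10 alone held 32.6% to 38.7% of the counts of the family in epithelium, and the top 2 members 51.5% to 61.1%. The share of Klk11 was 7.34% at the median and 15.3% in OM8, its highest, where that of Klk14 was at its lowest, 17.8%. Summed over the members, the family ran from 545.7 normalized counts in OM8 through a median of 678.2 to 998.8 in YF5. Per 10000 protein-coding counts it ran from 16.01 in YM4 through 21.6 to 23.5 in Y1, so the mouse with the highest sum depended on the scaling.

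The third comparison asked whether the family differed between aged and young epithelium. None of the 10 members passed the test (edgeR with the mouse set as covariate, adjusted p = 0.9996 for each), DESeq2 also called none, and over all genes 0.0126% of the 15859 tested were called. At an unadjusted p under 0.05, 3 members were lower in aged mice, beside 1.77% of all genes tested. Of the 10 log2 fold changes, 8 were negative, with a median of -0.19 against 0.00 over all genes.

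Klk7 showed the largest negative value. It was 37.4 in O1, 46.6 in O2, 58.4 in O3, 47.9 in OF5 and 35.1 in OM8, against 60.5 in Y1, 63.4 in Y3, 77.5 in YF5 and 53.0 in YM4. The age groups overlapped only because O3 was above YM4, and among mice with both layers and among mice with epithelium only, every aged mouse was below every young mouse. This was also so for Klk13, and for 1.46% of genes tested. The separation depended on the TMM scaling. Relative to protein-coding counts, Klk7 was higher in O3 (1411 of 7971284 counts) than in Y1 (1709 of 9844066). Klk13 was likewise higher in OM8 (309 of 1433857) than in YM4 (232 of 1157395). The log2 fold change of Klk7 was -0.51 (SE 0.15, edgeR, unadjusted p = 0.00387, adjusted p = 0.9996). It was -0.39 (SE 0.17) within the 5 mice with both layers and -0.62 (SE 0.26) within the other 4.

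Klk13 was 66.8 to 93.4 in aged and 80.3 to 117.9 in young epithelium, with a log2 fold change of -0.32 (SE 0.13, unadjusted p = 0.0297 by edgeR). Klk14 was 97.1 to 155.2 in aged and 140.2 to 225.0 in young epithelium, with -0.36 (SE 0.16, unadjusted p = 0.0416 by edgeR). For both, the value was larger in the 4 shallow libraries, a difference that was not tested. It was -0.16 (SE 0.12) for Klk13 and -0.06 (SE 0.14) for Klk14 within the 5 mice with both layers, and -0.47 (SE 0.25) and -0.68 (SE 0.26) within the other 4. Without YF5 the values were -0.20 and -0.19.

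The other members were nearer to 0. Klk10 was at -0.28 (SE 0.17), Klk8 at -0.24 (SE 0.15), Klk9 at -0.15 (SE 0.15), Klk12 at -0.12 (SE 0.18), Klk5 at -0.11 (SE 0.18) and Klk11 at 0.10 (SE 0.14). Klk6 was at 0.69 (SE 0.57), on 1 to 51 counts per library, and at 0.05 without O3. Intervals of 2 SE around these 7 values all held 0, and the widest, for Klk6, ran from -0.45 to 1.83.

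Differentiated keratinocyte markers had a similar median, at -0.21, and 1 of the 6, Cnfn, had an unadjusted p under 0.05 (-0.28, SE 0.13, edgeR, unadjusted p = 0.0441, adjusted p = 0.9996). The 5 tested inhibitors had a median of -0.02, with Spink5 at 0.03 (SE 0.15). Basal keratinocyte markers had a median of -0.18, and 4 of the 5 were negative. Fibroblast markers had a median of -0.21, and 2 of the 5, the collagen genes Col1a1 (-0.62) and Col3a1 (-0.70), were lower at an unadjusted p under 0.05 (edgeR), though neither was called. Skeletal muscle markers had a median of -1.11, with none of the 5 at an unadjusted p under 0.05. Substrates and receptor had a median of -0.19 and upstream proteases of -0.06, and none of the inhibitors, substrates and upstream proteases was called or had an unadjusted p under 0.05. The part of these cell types in the values of the members was not tested.

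**Figure D4:**
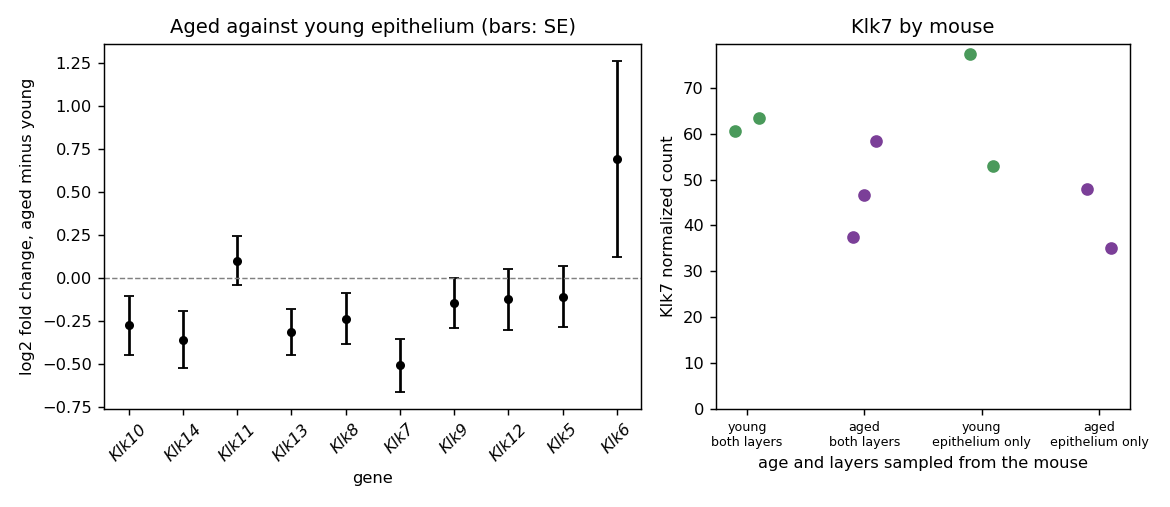
Left, log2 fold change of each gene in aged against young epithelium with its SE. Right, Klk7 normalized count per mouse, by age and by whether the mouse gave both layers. No gene passed the test, and aged mice lie below young mice within both sets for Klk7.

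Between mice, most members moved together in epithelium. After the mean of each mouse set was taken off, the log2 level of Klk9 followed the mean of the other members with a Pearson r of 0.95 over the 9 libraries, and that of Klk8 with 0.87. For Klk14 it was 0.84, for Klk12 0.83, for Klk7 0.79, for Klk10 0.75 and for Klk13 0.62. Klk5 was looser at 0.39. Klk11 (-0.16) and Klk6 (-0.39) did not follow the rest. These are descriptions over 9 libraries, and within a library all members share its depth and scaling. YF5 deviated most upwards in 7 members and OM8 most downwards in 5, both of them libraries with few protein-coding counts.

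**Figure D5:**
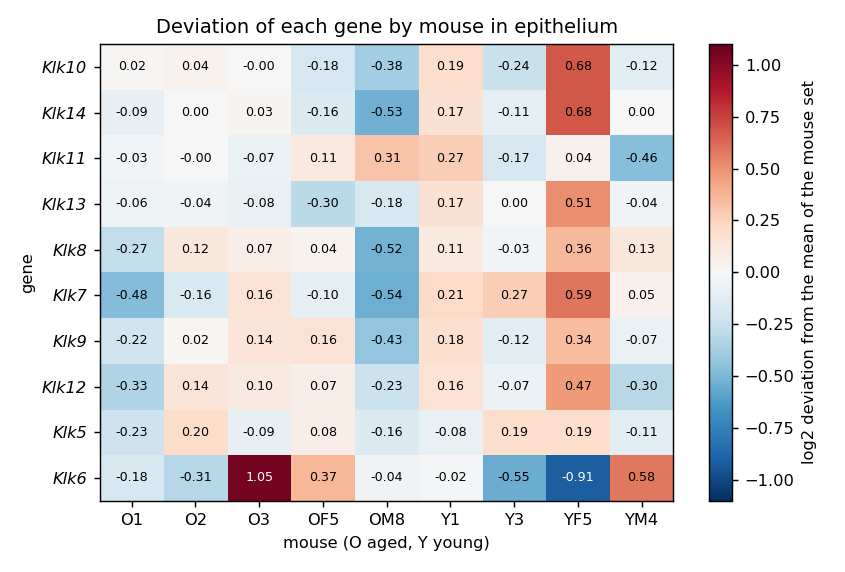
Log2 deviation of each gene from the mean of its mouse set (mice with both layers, or with epithelium only) in the 9 epithelial libraries. YF5 is high and OM8 low for most genes, while Klk11 and Klk6 run differently.

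Among 1474 well expressed genes outside the family, the 5 most like the members' mean over the 9 libraries were Cpa4 (Pearson r 0.99), Gm26244 (0.97), S100a10 (0.96), Krt80 (0.95) and Mapk13 (0.95). These genes were picked by this r, so its height is not a test. The mean was over all 10 members, Klk6 and Klk11 among them, and age was not taken off. Cpa4 encodes a secreted carboxypeptidase and Krt80 a keratin. The mean levels of Cpa4 and Krt80 in epithelium were 84.8 and 220.4 normalized counts. Cpa4, Krt80 and Mapk13 were higher in epithelium, by 5.40, 4.92 and 5.73 on the log2 scale, while S100a10 rose by 0.50 and Gm26244 fell by 1.53 (edgeR, adjusted p at most 0.0412).

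As 9 of the 10 members were higher in epithelium, the promoters of all 10 were read for shared letters. RefSeq gave 12 windows for the 10 members (2 each for Klk6 and Klk11), and the 250 bases before each start were searched on both strands. None of the 12 held TATAAA (the TATA box), TGANTCA (AP-1) or AACNGGTT (grainyhead), which 12.4%, 6.75% and 1.79% of all 32851 windows of that length held. This says only that these letters are not in these windows. The members' windows had a median of 3 CpG, from 0 (Klk14) to 18 (Klk8), against a median of 6 over all windows. The last 200 bases before the start are shown for Klk10, which had the highest level, and for Klk14, which had the largest log2 fold change over the 14 libraries, from RefSeq on build GRCm38.p6, plus strand, in lower case with no capitals because no motif matched.
Klk10 (chr7:43780854-43781053): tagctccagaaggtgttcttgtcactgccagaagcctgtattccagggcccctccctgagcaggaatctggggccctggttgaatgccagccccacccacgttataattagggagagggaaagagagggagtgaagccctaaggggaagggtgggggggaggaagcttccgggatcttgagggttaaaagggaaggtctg
Klk14 (chr7:43690218-43690417): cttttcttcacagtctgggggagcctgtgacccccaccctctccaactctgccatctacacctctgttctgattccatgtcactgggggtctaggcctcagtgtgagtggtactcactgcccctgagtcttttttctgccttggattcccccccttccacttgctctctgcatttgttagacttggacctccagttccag

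The counts of 2 members carry a limit from the annotation. The antisense gene 2310002F09Rik overlaps 382 of the 1540 exonic bases of Klk8 and 287 of the 1271 of Klk14 on the opposite strand. Whether strand was used in counting is not given in the sources used here, so reads of these overlaps cannot be told apart. Whether such reads were left out of the members' counts is not known either, and the antisense level cannot show it. The places of Klk8 and Klk14 in the order per kilobase carry this limit. The antisense gene had a mean of 2.54 ± 1.44 normalized counts (SD, n = 9) in epithelium, against a lowest value of 28.3 for Klk8 and 97.1 for Klk14. In stroma it had 0.610 ± 0.516 (SD, n = 5), beside means of 0.654 for Klk8 and 0.259 for Klk14.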

How the data were processed

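Total RNA of peeled esophageal epithelium (9 mice) and stroma (5 of these mice) was made into oligo-dT libraries. The deposited files hold raw read counts per gene, 1 file per library, which the authors made with Rsubread and featureCounts on GRCm38.p6, and the annotation release, strand setting and handling of multi-mapping reads are not given in the sources used here. Counts were fitted with edgeR 4.0.16 (R 4.3.3: filterByExpr with a minimum count of 10, TMM, estimateDisp, robust quasi-likelihood test), with Benjamini-Hochberg adjustment over all genes tested and a threshold of 0.05. Layers were compared over all 14 libraries. Aged and young epithelium were compared over 9 libraries with their own TMM scaling and with a covariate for the 2 forms of mouse code, which separate mice with both layers from mice with epithelium only. An SE is the log2 fold change divided by the root of its F. Levels are counts per 1000000 on the TMM-scaled libraries of the 14-library fit. Neighbours in the order were compared on log2 levels per kilobase with 0.5 counts added (exact sign-flip permutation test, scipy 1.17.1). DESeq2 1.42.0 served as an alternative, beside other normalizations, filters, lengths and sets of libraries.

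The members and gene lists were chosen with earlier results of these data known. Genes named were the 10 members, the listed cascade and marker genes, the other kallikrein genes of the locus, and the 5 genes most like the members' mean among those whose average log2 CPM reached 5. A few library values, such as Klk5 and Klk12 in O1 stroma, were singled out after they were seen. Depth was 8217516 to 21867101 counts per library. Layers were paired by the mouse code, which names the same animal in both layers. Deviations of paired libraries from their group means correlated at 0.04 to 0.14. The highest value is shared by Y1 and Y3, whose deviations mirror each other in a group of 2. Values for mismatched mice are not given, so these correlations do not test the pairing. Libraries of 1 group came from different mice by their codes, and all 20 pairs within groups differed by more than sampling noise (chi-square per degree of freedom at least 9.93). Gene symbols were matched to GENCODE M21 for 53292 of 55291. The fitting code was tested on simulated data.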

Additional observations from a re-analysis of the deposited data

Results flagged for a closer look

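1 of the 40 combinations of member and group that were examined held a library far from the others. Klk7 in the stroma of O2 stood at 1.07 on the log2(normalized count + 0.5) scale (39 counts), whereas the nearest of the other 4 stromal libraries was at -0.86 and the lowest at -1. Its gap to the nearest library was 0.932 of the whole range. Chance flags about 1 in 20 groups.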

How the results depend on the processing

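The count of 9 members higher in epithelium was the same without any 1 library, with upper quartile normalization, with no filter on low counts, without the largest ribosomal RNA and microRNA genes, and in the 10 libraries of the 5 mice with both layers, both with the mouse as replicate block (paired, 9) and without it (9), and the block changed no call. DESeq2 called 8, as it gave Klk7 no adjusted p. With at least 10 counts in every library no member was left to test. By age, 0 members were called under every alternative that was run (members with an unadjusted p under 0.05: 3 by edgeR, 2 by DESeq2), while calls over all genes were 2 by edgeR, 28 by DESeq2, 36 without a filter, 4 and 1 within the mouse sets and 0 without the covariate. DESeq2 gave Klk6 no adjusted p by age. Within the 5 mice with both layers Klk10 reversed to 0.015 and Klk11 to -0.11, and Klk11 was -0.019 to 0.27 on leaving out 1 library. In the order, 6 pairs passed without any 1 library, 7 without division by length or with coding length, where the other 2 passed in the opposite direction (Klk13 above Klk11, Klk7 above Klk8), and 5 by ranks within libraries, where Klk12 and Klk5 were lost. Within the mouse sets 0 pairs passed, since 5 and 4 mice allow no p below 0.0625 and 0.125. Klk11 minus Klk13 reversed to -0.64 without division by length, -0.64 with coding length, -0.27 within the 5 mice and -0.67 ranks, and Klk8 minus Klk7 to -0.25, -0.31 with coding length, and -0.027 within the 4 mice. Klk7 minus Klk9 reversed to -0.049 within the 5 mice and -0.11 ranks. On leaving out 1 library, Klk11 minus Klk13 ran from -0.10 to 0.061 and Klk7 minus Klk9 from -0.017 to 0.068. The cause was not tested. Low counts limit Klk6 and the stromal values of the members.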
